A study of Homo sapiens with 24 samples.

Results

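Chromosome 19 carries long arrays of zinc finger genes, and the 231 members described here are those whose messenger RNA was detectable in HCT116 cells. They are the protein-coding genes of chromosome 19 in the GENCODE 29 annotation whose symbol is ZNF followed by a number, kept where at least 10 reads fell on the gene in at least 3 libraries. The annotation lists 249 such genes, so 18 were under that level, and the members are 231 of the 24153 genes tested in the series. HCT116 is a diploid human colon cancer line, and the study asked what its cells lose without the TNRC6 proteins, the GW182-type scaffolds that join Argonaute to the machinery that silences messenger RNA. There were 8 groups of 3 libraries. Untransfected groups were wild type (WT), TNRC6A-/-, TNRC6B-/- and TNRC6AB-/-, the last of which lacks both paralogs. In the transfected groups, WT and TNRC6AB-/- cells each received either siTNRC6C, a pool of siRNAs against the remaining paralog, or siGL2, a duplex with no matching transcript. Knockout lines were bought, each is a single line, and WT cells came from another supplier, so a line's own history and its knockout cannot be told apart. A change between bulk samples likewise cannot be assigned to fewer expressing cells or to less RNA per cell.

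Most of these genes encode C2H2 zinc finger proteins, in which a string of fingers, each folded around a zinc ion by paired cysteines and histidines, reads DNA. Many also carry a KRAB domain, which recruits TRIM28 and, through it, the histone methyltransferase SETDB1 and HP1 proteins, and the KRAB family is known for silencing transposable elements. The genes arose by repeated duplication and lie in long runs of neighbours. Because their fingers are copies of one another, a short word that occurs in 1 finger can recur many times in the coding sequence. The miR-181 family is known to bind such coding repeats, which makes the members candidate microRNA targets of an unusual kind and is why its sequences are shown.

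The 4 mature miR-181 sequences in the RefSeq microRNA table (GRCh38.p14) share 1 seed, bases 2 to 8, given in capitals. The mature sequence of miR-181a lies at chr1:198859108-198859130 on the minus strand, with a further copy at chr9:124692480-124692502 on the plus strand. miR-181b is at chr1:198858925-198858947 on the minus strand and chr9:124693725-124693747 on the plus strand. miR-181c is at chr19:13874725-13874746 and miR-181d at chr19:13874910-13874932, both on the plus strand of the chromosome that holds the members.
hsa-miR-181a-5p: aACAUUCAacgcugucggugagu
hsa-miR-181b-5p: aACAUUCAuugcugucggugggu
hsa-miR-181c-5p: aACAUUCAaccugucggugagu
hsa-miR-181d-5p: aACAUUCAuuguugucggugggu
The letters searched on the sense strand were TGAATGT, the reverse complement of that seed, in the longest coding part of each gene. Of 230 members with a coding part, 167 (72.6%) held at least 1 match, against 119 of 239 ZNF genes of other chromosomes (49.8%), 57 of 938 other protein-coding genes of chromosome 19 (6.08%) and 13.7% of 15192 protein-coding genes tested. The median member held 4 matches, 60 members held 7 or more, and ZNF780B held the most, 16. Per 1000 coding bases the members held 2.3 matches and all protein-coding genes 0.137.

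Within the fingers the matches sat at fixed places. In 443 of the 945 matches (46.9%) the last 3 letters were the codon of the first cysteine of a finger and in 417 (44.1%) that of the second, which left 85 (8.99%) elsewhere. The most frequent 21-base stretches around a match are printed below with the match in capitals, the first from 30 matches in 20 members at a first cysteine and the second from 19 matches in 12 members at a second cysteine. The remaining lines are matches from members whose levels are described further on, read from GENCODE 29 transcripts on GRCh38. ZNF480 shows both places in a single finger, since its stretches at chr19:52322104-52322124 and chr19:52322113-52322133 on the plus strand overlap. The ZNF615 match is at chr19:51994442-51994462 and the ZNF160 match at chr19:53069741-53069761, both on the minus strand.
first cysteine, 20 members: aaccctaTGAATGTaaggaat
second cysteine, 12 members: agtgcagTGAATGTgggaaat
ZNF480, first cysteine: agccgtaTGAATGTaatgaat
ZNF480, second cysteine: aatgtaaTGAATGTggtaaag
ZNF615, second cysteine: tatgcagTGAATGTgggaaag
ZNF160, second cysteine: aatgtaaTGAATGTggcaagg
A match is a description of letters, and microRNA binding was not measured in the files used here.

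Libraries held 28130899 to 42678308 reads on annotated genes. TNRC6C stood at 53.7 ± 4.24 CPM (reads of a gene scaled to a common library size; SD, n = 3) in WT siGL2 cells and at 21.04 ± 0.410 after siTNRC6C, and in TNRC6AB-/- cells it went from 119.8 ± 7.04 to 19.7 ± 1.04. TNRC6A transcript was 111.4 ± 13.96 CPM in WT and 68.6 ± 1.96 in TNRC6A-/- cells, and TNRC6B was 192.3 ± 9.44 in WT and 119.8 ± 6.63 in TNRC6B-/- cells, so the targeted genes were lower where the labels say so. Nothing in the labels says that the 3 libraries of a group came from separate cultures, so p-values measure the spread between these libraries only. Of 8 epithelial markers EPCAM, CDH1, KRT8, KRT18, KRT19 and CDX2 were expressed in all groups, whereas VIL1 and LGALS4 stayed under 1 CPM. Some of these markers moved with the groups: CDH1 was at a mean of 98.2 CPM in WT, 24.6 in TNRC6AB-/-, 65.2 in WT siGL2 and 24.5 in TNRC6AB-/- siTNRC6C cells, and EPCAM at 213.6, 82.0, 196.9 and 116.3 CPM in the same order. KRT8 ranged from 422.2 to 1199 CPM over all libraries. Of 13 markers of blood, endothelial or stromal cells COL1A1 stood highest in most groups, at 15.6 to 45.0 CPM over all libraries, with means of 24.0 in WT, 33.7 in TNRC6AB-/-, 18.2 in WT siGL2 and 42.98 in TNRC6AB-/- siTNRC6C cells. COL3A1 went from 0.0522 CPM in WT to 41.4 in TNRC6AB-/- and from 0.336 in WT siGL2 to 11.4 in TNRC6AB-/- siTNRC6C cells. The other 11 stayed under 5 CPM, with CD3E, CDH5 and LUM at or near 0. The summed level of these 13 genes ran from 31.7 to 38.7 CPM in WT, 63.3 to 101.7 in TNRC6AB-/-, 25.8 to 29.9 in WT siGL2 and 60.8 to 65.4 in TNRC6AB-/- siTNRC6C libraries, and the part of either marker list in the results was not tested. Mean fragment length, derived from Salmon's effective transcript lengths, was 182.3 to 189.9 bases in WT, 165.6 to 171.8 in TNRC6A-/- and 185.6 to 191.7 in TNRC6AB-/- libraries, and 196.9 to 214.3 in the transfected ones.

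The members were weakly expressed as a class. Their median level was 2.36 TPM, a level scaled by transcript length, against 4.42 for the ZNF genes of other chromosomes and 6.35 for the other protein-coding genes of chromosome 19. ZNF146 was the highest at a mean of 64.5 TPM over 24 libraries, followed by ZNF121 at 38.4, ZNF544 at 26.1, ZNF83 at 22.1 and ZNF460 at 20.1, and the lowest member stood at 0.0425 TPM. Together the 231 genes took 0.237% to 0.304% of the reads of a library. A total of 185 members reached 1 CPM on average. Just inside the rule were ZNF816-ZNF321P with 4 libraries at 10 reads or more, and ZNF730 and ZNF433 with 6 each. Just outside it were ZNF135 with 2 libraries and ZNF229 with 1, while ZNF534, ZNF582 and ZNF256 had at most 1 read in any library.

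KRAB letters were found in the translated coding part of 196 of 230 members (85.2%) and in 39.6% of the ZNF genes of other chromosomes. The median member had 12 fingers and the largest number was 36. In 2 members there was no finger by the pattern used. The transcripts were low in G and C, with a median of 45.4% against 59.9% for the other genes of chromosome 19 and 49.3% for all protein-coding genes tested. Sequence copies limit the assignment of reads: the median member shared 9.63% of its 31-letter words with transcripts of other genes, and 13 members shared more than 50%, among them ZNF20 at 54.5%.

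**Figure D1:**
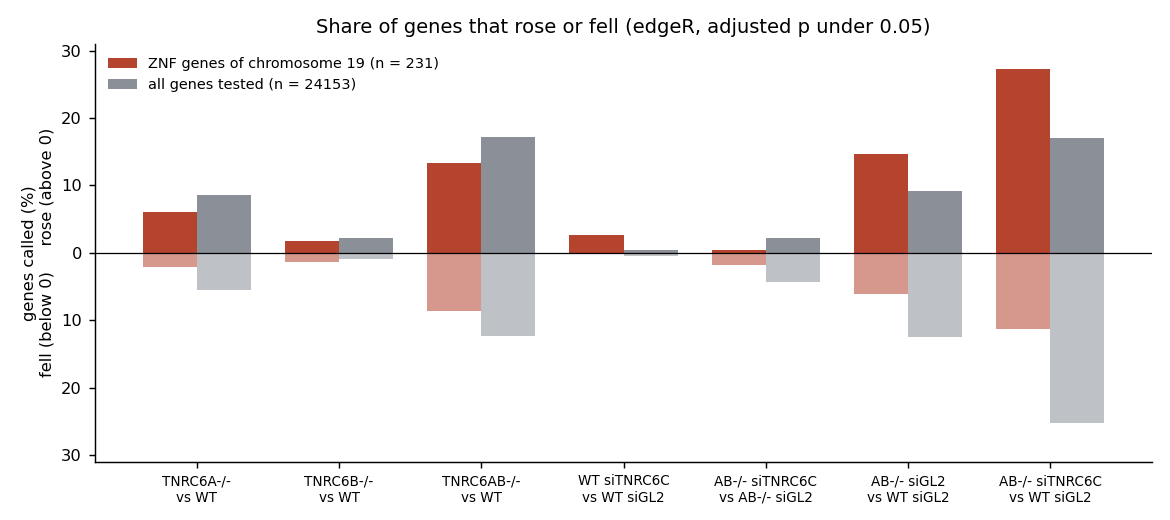
Share of genes (%) that rose (above 0) or fell (below 0) at an adjusted p under 0.05 in each of 7 comparisons, for the 231 members (red) and all 24153 genes tested (grey). Members rose in a share of 27.3% against 17.0% of all genes in TNRC6AB-/- siTNRC6C against WT siGL2, and fell in 11.3% against 25.2%.

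In the single knockouts the share of members called was near or below that of all genes. In TNRC6A-/- cells 14 members rose, where 8.52% of all genes tested rose, and 5 fell, where 5.47% did, so that 6.06% and 2.16% of the members were called. The median log2 fold change of the members was 0.07 and that of all genes 0.02. TNRC6B-/- cells had 4 members up and 3 down, beside 2.2% and 0.94% of all genes, with a median of 0.01 for the members and 0.04 for all genes. TNRC6B-/- counts rest on 1 library, over all genes as over the members: without TNRC6B-/- replicate 1 the fit called 27 members up and 9 down, beside 9.94% and 3.07% of all genes. Without TNRC6A-/- replicate 2 the number that rose in TNRC6A-/- cells was 5, beside 6.17% of all genes.

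ZNF615 (ENSG00000197619.13), a KRAB zinc finger gene at chr19:51991332-52008230 on the minus strand with 19 fingers, showed the sharpest loss. Its level was 2.83, 1.78 and 3.37 CPM in the WT libraries and 0.471, 0.738 and 0.310 CPM in TNRC6A-/- cells. TNRC6B-/- libraries stood at 2.31, 2.11 and 2.09 CPM and TNRC6AB-/- libraries at 0.589, 0.315 and 0.273 CPM. All libraries of the lines with a TNRC6A mutation were therefore below all WT and TNRC6B-/- libraries. The log2 fold change was -2.38 ± 0.28 (SE) in TNRC6A-/- cells (edgeR adjusted p = 3.58e-06) and -2.75 ± 0.29 in TNRC6AB-/- cells (edgeR adjusted p = 1.47e-07). In transfected cells it was -3.63 ± 0.29 for TNRC6AB-/- siGL2 and -3.16 ± 0.28 for TNRC6AB-/- siTNRC6C, each against WT siGL2 (edgeR adjusted p = 5.36e-09 and 6.64e-09).

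The transcripts of ZNF615 changed unequally, a look that was chosen after the gene's values were seen. Its 8 annotated transcripts of more than 2000 bases together held 47.3 to 97.7 reads in WT and 53.0 to 82.8 in TNRC6B-/- libraries. The same transcripts held 1.1 to 8.0 reads in TNRC6A-/-, 1.0 to 4.0 in TNRC6AB-/-, 0.0 to 2.0 in TNRC6AB-/- siGL2 and 0.0 in all 3 TNRC6AB-/- siTNRC6C libraries, against 108.1 to 115.9 in WT siGL2. Its 7 short transcripts, at most 704 bases long, held 8.1 to 23.8 reads in WT, 7.9 to 14.9 in TNRC6A-/- and 7.1 to 14.7 in TNRC6AB-/- libraries, ranges that overlap. The reads that remained on ZNF615 in lines with a TNRC6A mutation were thus mostly on short transcripts. When each gene's counts were scaled by its average transcript length the fold change shrank to -0.75 in TNRC6A-/- and -0.64 in TNRC6AB-/- siTNRC6C cells and did not pass the test there (edgeR adjusted p = 0.114 and 0.0927).

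The neighbours of ZNF615 gave other values. ZNF614, the next member, gave -0.05 in TNRC6A-/- and -0.10 in TNRC6AB-/- cells and passed in neither. ZNF350, on the other side, fell in TNRC6A-/- cells from 3.33, 3.86 and 4.38 CPM in WT to 1.93, 2.1 and 2.13 CPM (log2 fold change -0.91 ± 0.15, edgeR adjusted p = 0.000295). In TNRC6AB-/- cells ZNF350 stood at 4.13, 5.28 and 5.49 CPM, with a log2 fold change of 0.37 that did not pass (edgeR adjusted p = 0.0609), so that the TNRC6A-/- libraries were the lowest of all groups. ZNF607 was likewise lowest in TNRC6A-/- libraries, which held 4.17, 4.36 and 4.57 CPM against 10.2, 8.68 and 11.6 CPM in WT (-1.22 ± 0.13, edgeR adjusted p = 1.39e-06) and 7.92, 8.43 and 8.42 CPM in TNRC6AB-/- cells.

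ZNF20 (ENSG00000132010.15) went the other way and rose in all 3 knockout lines. It is a KRAB zinc finger gene at chr19:12092843-12140407 on the minus strand, and its exons are also annotated in the read-through gene ZNF625-ZNF20, so that the split of reads between these genes is uncertain. WT libraries held 0.944, 0.621 and 0.567 CPM, TNRC6A-/- libraries 2.33, 2.08 and 2.04, TNRC6B-/- libraries 2.24, 1.70 and 1.84, and TNRC6AB-/- libraries 3.47, 4.23 and 3.95 CPM. No knockout library overlapped WT, and the double knockout was above both single knockouts. Log2 fold changes were 1.59 ± 0.29, 1.44 ± 0.29 and 2.45 ± 0.28 (edgeR adjusted p = 0.000562, 0.00462 and 5.1e-07). Its main protein-coding transcript held 3.3 to 17.2 reads in WT and 86.3 to 119.3 in TNRC6AB-/- libraries. ZNF625-ZNF20 itself held 0.127, 0.508 and 0.856 CPM in WT and no reads in TNRC6AB-/- libraries, and how far reads moved between the pair of genes was not tested.

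Other large changes in single knockouts were fewer and smaller. ZNF772 rose in TNRC6A-/- cells from 1.58, 1.38 and 1.57 CPM to 3.95, 3.61 and 2.39 CPM (1.14 ± 0.24, edgeR adjusted p = 0.0021). ZNF549 (1.12 ± 0.35, edgeR adjusted p = 0.0337) and ZNF793 (0.98 ± 0.31, edgeR adjusted p = 0.0335) were near the threshold there, and so was the fall of ZNF573 (-0.46 ± 0.15, edgeR adjusted p = 0.0421). In TNRC6B-/- cells ZNF419 fell from 3.50, 4.10 and 3.77 CPM to 2.48, 1.61 and 1.22 CPM (-1.06 ± 0.20, edgeR adjusted p = 0.00266). ZNF432 fell from 1.51, 1.63 and 1.90 to 1.05, 0.450 and 0.633 CPM (-1.19 ± 0.26, edgeR adjusted p = 0.0109). ZNF266 fell as well (-0.46 ± 0.09, edgeR adjusted p = 0.00377), whereas ZNF45 (0.54 ± 0.12, edgeR adjusted p = 0.0138) and ZNF580 (0.37 ± 0.10, edgeR adjusted p = 0.0391) rose.

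**Figure D2:**
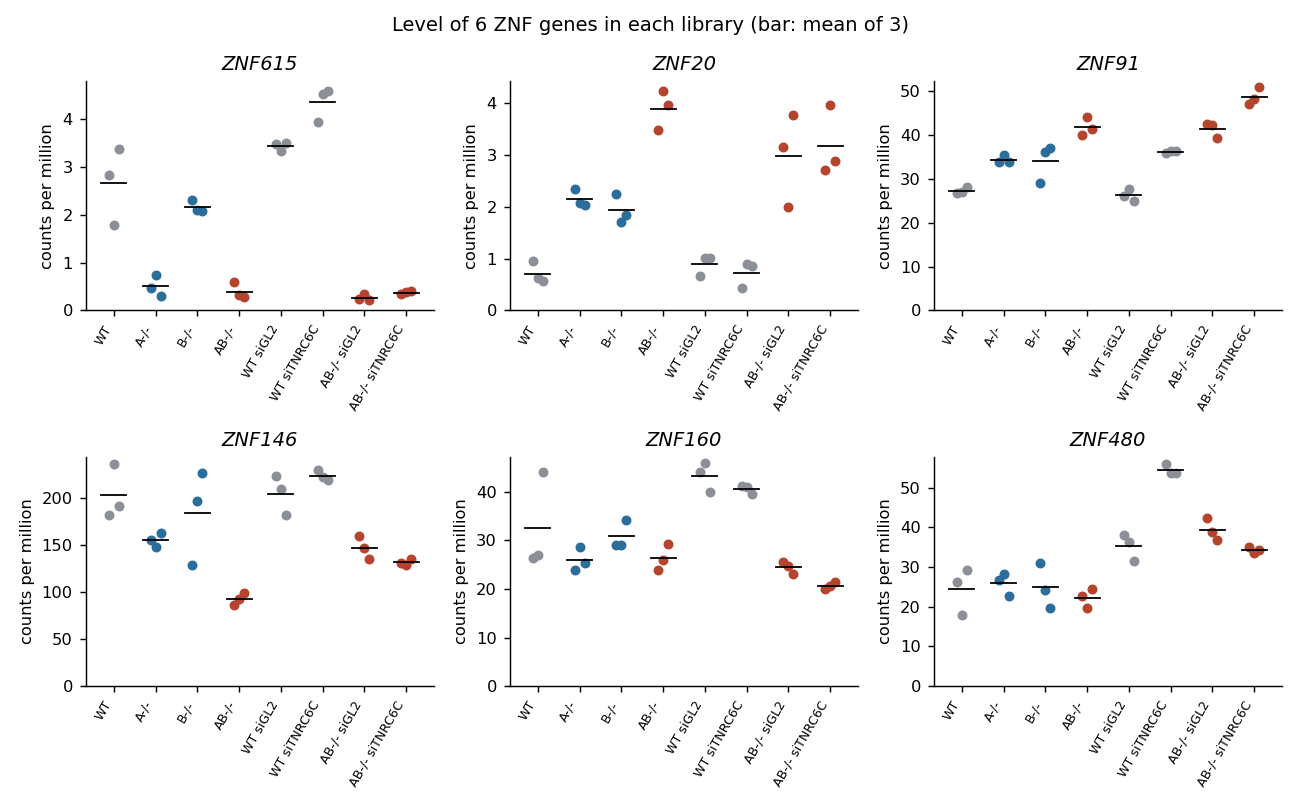
CPM of ZNF615, ZNF20, ZNF91, ZNF146, ZNF160 and ZNF480 in each library, with points for libraries and a bar for the mean of 3, grouped by genotype and transfection (grey: WT, blue: single knockouts, red: TNRC6AB-/-). ZNF615 is below 1 CPM in every library with a TNRC6A mutation, ZNF20 is above WT in all knockout groups, and ZNF480 stands highest in WT siTNRC6C, at 53.8 to 55.9 CPM.

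Double knockout cells without transfection had 31 members up and 20 down (13.4% and 8.66%), while 17.2% of all genes rose and 12.3% fell. The median of the members was 0.01, as was that of all genes, so the direction of the class was balanced. The 2 members with the highest levels fell. ZNF146, a protein of fingers with no KRAB letters, stood at 182, 236 and 192 CPM in WT and at 86.7, 92.3 and 98.5 CPM in TNRC6AB-/- libraries (-1.14 ± 0.14, edgeR adjusted p = 1.85e-06). ZNF121 went from 255, 256 and 232 CPM to 136, 137 and 127 CPM (-0.90 ± 0.11, edgeR adjusted p = 1.33e-06). In neither gene did the groups overlap.

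ZNF761 fell (-0.85 ± 0.12, edgeR adjusted p = 1.33e-05), from 15, 15.1 and 18.6 CPM to 8.36, 9.51 and 9.17 CPM. Among the genes that rose after ZNF20, ZNF233 gained 1.03 ± 0.28 (edgeR adjusted p = 0.00672), ZNF575 gained 0.96 ± 0.22 (edgeR adjusted p = 0.00171) and ZNF155 gained 0.84 ± 0.18 (edgeR adjusted p = 0.00117) on the log2 scale. ZNF233, ZNF575 and ZNF155 are members of the same run of neighbours, at chr19:43525497-44500524. In that run 9 of 21 members rose and 0 fell by edgeR's test, beside 17.2% and 12.3% of all genes. DESeq2 and limma also gave 0 down there, and 1 member was down at an unadjusted p under 0.05. Without TNRC6AB-/- replicate 2, 20 members rose in all, beside 13.2% of all genes. Fits of the 6 compared libraries alone called 10 members up and 8 down, beside 7.97% and 6.31% of all genes.

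Transfected TNRC6AB-/- siGL2 cells repeated the genotype comparison with other libraries. Against WT siGL2 34 members rose and 14 fell (14.7% and 6.06%), beside 9.17% and 12.5% of all genes, with medians of 0.14 for the members and -0.003 for all genes. Of the 31 members that rose without transfection 15 rose here too (48.4% of the 31 and 44.1% of the 34), and of the 20 that fell 6 fell here (30% of the 20 and 42.9% of the 14). ZNF562 alone was called in opposite directions. The overlap of calls was not counted over all genes tested, so these shares have no background beside them. The 2 comparisons share no library, and Spearman's rho of the log2 fold changes over the 231 members was 0.36, against 0.40 over all genes tested. These points share genes, libraries and base composition, and genes are no replicates.

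Among the largest changes here, ZNF160 fell from 44.0, 46.0 and 40.0 CPM in WT siGL2 to 25.6, 24.6 and 23.2 CPM (-0.82 ± 0.14, edgeR adjusted p = 0.000158). ZNF581 fell by 0.78 ± 0.17 on the log2 scale (edgeR adjusted p = 0.00197) and ZNF57 by 0.66 ± 0.14 (edgeR adjusted p = 0.00119). ZNF432, which was lower in TNRC6B-/- cells, rose from 1.62, 1.22 and 1.24 CPM to 2.41, 2.95 and 2.23 CPM (0.90 ± 0.24, edgeR adjusted p = 0.00835). ZNF20 rose by 1.74 ± 0.27 (edgeR adjusted p = 5.17e-05) and ZNF772 by 0.74 ± 0.23 (edgeR adjusted p = 0.0234).

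Knockdown of TNRC6C in WT cells came with small positive fold changes in most members. The edgeR test called 6 members up (2.6%) and 0 down, where it called 0.397% of all genes up and 0.534% down. DESeq2 and limma also called 0 down, and at an unadjusted p under 0.05 there were 51 up and 3 down. Of 231 members 179 (77.5%) had a fold change above 0, and the median was 0.17, against 0.001 for all genes and 0.06 for the ZNF genes of other chromosomes. In 89 members (38.5%) all siTNRC6C libraries lay above all siGL2 libraries, against 16.3% of all genes, and in 5 (2.16%) all lay below, against 12.6%. The number that passed was 0 without any 1 of the 3 siTNRC6C libraries, WT siGL2 replicate 1 or WT siGL2 replicate 3, and 2 without WT siGL2 replicate 2, fits in which 0.0828% to 0.153% of all genes rose. It was 0 with the average transcript length as offset, 15 by DESeq2, 29 by limma with weights per group and 39 in a fit of these 6 libraries. The share of all genes that rose moved as well, to 0.182%, 1.57%, 4.23% and 5.71% in that order. The median of the members kept to between 0.15 and 0.24 over all alternatives run.

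ZNF480 showed the largest rise, from 38, 36.2 and 31.5 CPM in WT siGL2 to 55.9, 53.8 and 53.8 CPM in WT siTNRC6C (0.63 ± 0.15, edgeR adjusted p = 0.0455). Its coding part holds 10 seed matches. ZNF551 went from 17.8, 18.5 and 16.9 to 25.8, 26.6 and 26.2 CPM (0.56 ± 0.13, edgeR adjusted p = 0.032) and ZNF180 from 17.1, 15.9 and 14.4 to 23.0, 22.1 and 22.0 CPM (0.50 ± 0.11, edgeR adjusted p = 0.0356), with 11 matches each. ZNF587B rose by 0.47 ± 0.10 (edgeR adjusted p = 0.022) with 5 matches, and ZNF91 by 0.46 ± 0.09 (edgeR adjusted p = 0.00944) with 0. ZNF544, a highly expressed member, completes the 6 (0.41 ± 0.08, edgeR adjusted p = 0.0123).

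In TNRC6AB-/- cells the same siRNA pool gave 1 member up, ZNF708, and 4 down, beside 2.19% and 4.38% of all genes. ZNF708, a KRAB zinc finger gene with 14 fingers, stood at 18.2, 17.2 and 16.6 CPM after siGL2 and at 23.2, 21.8 and 23.6 CPM after siTNRC6C (0.40 ± 0.12, edgeR adjusted p = 0.039). The largest fall was that of ZNF296, a gene with 6 fingers and no KRAB letters, from 2.59, 2.59 and 2.51 to 1.17, 1.46 and 1.16 CPM (-1.01 ± 0.25, edgeR adjusted p = 0.0151). ZNF57 (-0.56 ± 0.14, edgeR adjusted p = 0.0193), ZNF525 (-0.43 ± 0.12, edgeR adjusted p = 0.0401) and ZNF585B (-0.36 ± 0.11, edgeR adjusted p = 0.0481) fell too. The median of the members was 0.10 and that of all genes -0.02. These calls hang on single libraries, and so did those over all genes. Leaving out any 1 of the 6 gave 0 up by edgeR's test, in fits where 0.849% to 1.38% of all genes rose. Leaving out TNRC6AB-/- siGL2 replicate 1 or 2 or TNRC6AB-/- siTNRC6C replicate 1 or 3 gave 0 down, where 1.01% to 1.49% of all genes fell. With all 6 libraries 19 members were up and 11 down at an unadjusted p under 0.05. By contrast 45 members rose and 14 fell in a fit of these 6 libraries, where 15.3% of all genes rose and 20.8% fell, and 36 rose and 17 fell by limma with weights per group, where 13.5% rose and 21.8% fell. Counts over all genes thus grew with the method too.

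The combination of all 3 losses gave the largest median change of the members among the 7 comparisons. In TNRC6AB-/- siTNRC6C against WT siGL2, called the combined loss from here on, 63 members rose (27.3%) and 26 fell (11.3%), where 17.0% of all genes rose and 25.2% fell. The median member changed by 0.25 on the log2 scale, against 0.01 for all genes, -0.01 for the ZNF genes of other chromosomes, of which 52 of 240 rose and 68 fell, and -0.22 for the other protein-coding genes of chromosome 19, of which 107 of 957 rose and 350 fell. In 103 members (44.6%) all TNRC6AB-/- siTNRC6C libraries lay above all WT siGL2 libraries, against 28.2% of all genes, and in 42 (18.2%) all lay below, against 32.0%. Whether these sets differ beyond chance was not tested. Base composition moved with the result: among the 6039 genes tested with the least G and C the median was 0.12 for all and 0.35 for 57 members, and among the 6038 with the most it was -0.18 for all and -0.23 for 26 members. With a GC correction the members had 63 up, 23 down and a median of 0.22, beside 17.9% and 23.8% of all genes. With average transcript length as an offset they had 41 up, 29 down and 0.17, beside 15.2% and 23.1% of all genes. Leaving out WT siGL2 replicate 1 gave 41 up and 17 down (12.6% and 20.3% of all genes), WT siGL2 replicate 2 gave 36 up (12.4%), and TNRC6AB-/- siTNRC6C replicate 1 gave 40 up (13.3%). On the TPM scale all genes tested moved by 0.54, so that the medians there were 0.71 for members, 0.56 for the ZNF genes of other chromosomes and 0.38 for the other genes of chromosome 19.

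**Figure D3:**
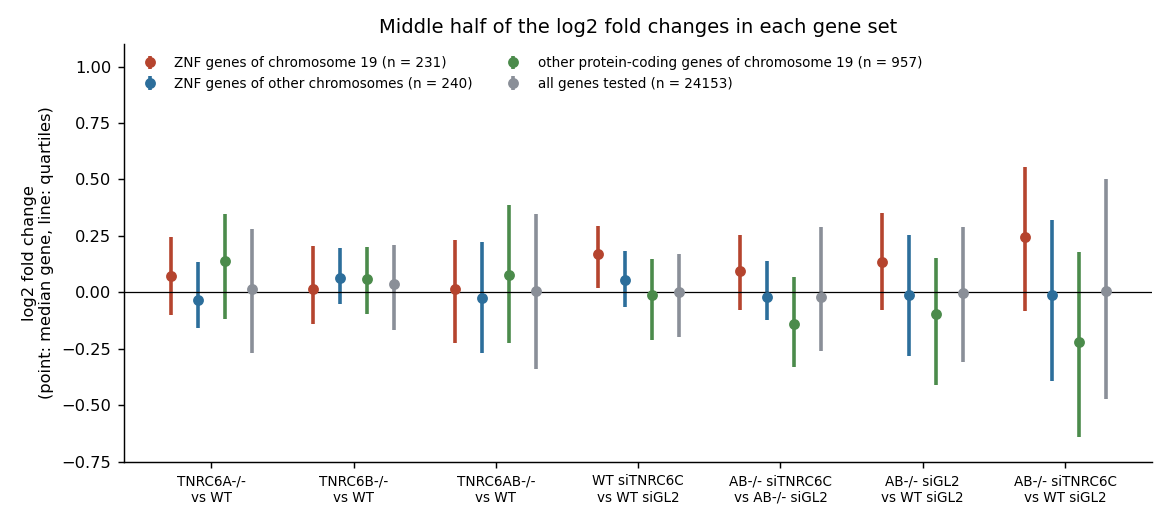
Median (point) and quartiles (line) of the log2 fold change in each of 7 comparisons for the 231 members (red), 240 ZNF genes of other chromosomes (blue), 957 other protein-coding genes of chromosome 19 (green) and all 24153 genes tested (grey). The members lie furthest from the other genes of chromosome 19 in TNRC6AB-/- siTNRC6C against WT siGL2, with medians of 0.25 and -0.22.

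ZNF91 (ENSG00000167232.13), whose protein binds SVA retrotransposons, passed in more comparisons than any other member. Its levels were 26.8, 27.0 and 28.1 CPM in WT, 40.0, 44.1 and 41.4 in TNRC6AB-/-, 26, 27.8 and 25 in WT siGL2 and 47.0, 48.2 and 51.0 CPM in TNRC6AB-/- siTNRC6C libraries. It passed in 6 of the 7, with 0.89 ± 0.09 in the combined loss (edgeR adjusted p = 4.01e-08) and 0.62 ± 0.09 in TNRC6AB-/- cells (edgeR adjusted p = 9.85e-06). The exception was siTNRC6C within TNRC6AB-/- cells, at 0.24 ± 0.09 (edgeR adjusted p = 0.101). ZNF91 has 33 fingers and no miR-181 seed match in its coding part or the 3′ untranslated region of that transcript. Its calls in the 3 comparisons of TNRC6AB-/- with WT cells held under all 16 alternatives, while that in TNRC6B-/- cells was lost in 13, that of siTNRC6C in WT cells in 6 and that in TNRC6A-/- cells in 4.

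Larger fold changes in the combined loss belonged to rarer transcripts. ZNF99 rose from 0.138, 0.337 and 0.371 to 0.962, 1.14 and 1.09 CPM (1.91 ± 0.39, edgeR adjusted p = 0.000448), ZNF20 from 0.672, 1.01 and 1 to 2.71, 3.95 and 2.87 CPM (1.84 ± 0.27, edgeR adjusted p = 9.2e-06), and ZNF284 gained 0.98 ± 0.34 (edgeR adjusted p = 0.0235) with 47.6% of its words shared with other genes. ZNF296 (-1.47 ± 0.24, edgeR adjusted p = 4.38e-05), ZNF57 (-1.22 ± 0.14, edgeR adjusted p = 3.91e-07) and ZNF160 (-1.06 ± 0.14, edgeR adjusted p = 2.84e-06) fell. ZNF160 went from 44.0, 46.0 and 40.0 to 20.1, 20.7 and 21.4 CPM, and its coding part holds 8 seed matches. ZNF146 and ZNF121 fell here too, at -0.64 ± 0.14 (edgeR adjusted p = 0.000943) and -0.42 ± 0.11 (edgeR adjusted p = 0.00339), whereas ZNF460 and ZNF544 were higher, at 0.57 ± 0.17 (edgeR adjusted p = 0.0086) and 0.37 ± 0.08 (edgeR adjusted p = 0.000588). ZNF83 was at -0.02 ± 0.12.

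Whether an effect depended on the other condition was tested by interaction terms. The response to siTNRC6C differed between TNRC6AB-/- and WT cells in 6 members, all with the lower change in TNRC6AB-/- cells (2.13% of all genes), and in 0 members with the higher change (0.903% of all genes). That 0 was 1 by DESeq2, 2 by limma and 5 at an unadjusted p under 0.05. The difference between TNRC6AB-/- and WT cells changed with transfection in 12 members, 8 with a higher value in transfected cells (2.22% of all genes) and 4 with a lower value (6.5% of all genes). ZNF146 and ZNF121 were among the 8, at 0.66 ± 0.20 and 0.63 ± 0.15 (edgeR adjusted p = 0.0407 and 0.012), so that their fall was smaller in transfected cells. The call for ZNF146 was lost in 12 of 22 alternatives and that for ZNF121 in 0.

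The calls in the combined loss, where 17.0% of all genes rose and 25.2% fell, were also counted by run of neighbours on the chromosome. There are 20 runs if a gap of over 500 kb separates them, and 8 of them hold 13 or more members. In the run at chr19:19668796-24129961, the pericentromeric set of primate-expanded genes to which ZNF91, ZNF43 and ZNF85 belong, 11 of 32 members rose, 1 fell and the median was 0.46. At chr19:43525497-44500524, 10 of 21 members rose, with a median of 0.30, and 0 fell by edgeR's test, by DESeq2, by limma or at an unadjusted p under 0.05. The run at chr19:51571298-53580269, home of ZNF615, ZNF480 and ZNF160, had 5 of 39 members up, 9 down and a median of -0.003. The runs at chr19:36182060-37817300 and chr19:57191500-58481230 had 8 of 26 and 11 of 40 members up, 3 and 3 down, and medians of 0.37 and 0.23. In the run at chr19:11483427-12640098 5 of 23 rose, 0 fell by edgeR's test and the median was 0.37. There 0 fell by DESeq2, 2 by limma, and 1 was down at an unadjusted p under 0.05. The remaining runs of that size, at chr19:8509678-9793180 and chr19:55476332-56671783, had 5 of 13 and 3 of 15 members up, 3 and 2 down, and medians of 0.17 and 0.12. Differences between runs were not tested. Other protein-coding genes within the bounds were few. In the order of the chromosome, the medians of these other genes in the 8 runs were 0.30 (n = 7), 0.20 (n = 8), 0.06 (n = 1), 0.21 (n = 5), -0.12 (n = 9), 0.29 (n = 6), -0.29 (n = 11) and 0.13 (n = 13), with the sign of the members' median in 5 of the 8 runs.

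**Figure D4:**
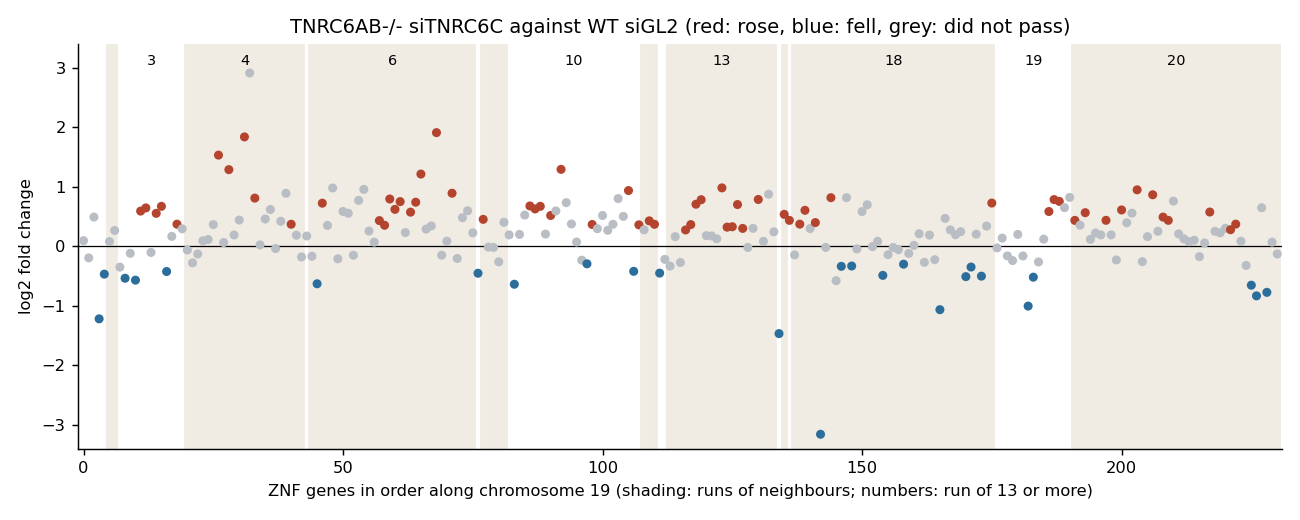
Log2 fold change of the 231 members in TNRC6AB-/- siTNRC6C against WT siGL2, in their order along chromosome 19, with bands for runs of neighbours (red: rose, blue: fell, grey: did not pass the test). The run marked 6 holds 11 members that rose and 1 that fell, and the run marked 18 holds 5 that rose and 9 that fell, ZNF615 at -3.16 being the lowest point. Of all genes tested 17.0% rose and 25.2% fell.

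Members with and without KRAB letters gave medians of opposite sign in the combined loss, on the scale of the counts and with no GC correction. Of the 196 with KRAB letters 60 rose and 18 fell (30.6% and 9.18%), with a median of 0.29. Of the 34 without them 3 rose and 8 fell (8.82% and 23.5%), with a median of -0.14, beside 17.0% and 25.2% of all genes. In TNRC6AB-/- cells without transfection the split was 23 up and 16 down against 8 up and 4 down, with medians of 0.003 and 0.10. The shares were 11.7% and 8.16% against 23.5% and 11.8%, beside 17.2% and 12.3% of all genes. The groups also differed in base composition: the transcripts of members with KRAB letters had a median of 44.9% G and C and those of members without them 61.8%, and 21 of the 34 were among the 6038 genes tested with the most G and C, against 5 of the 196. There the 21 had a median of -0.24, and the 5 had 0.07. With the GC correction the medians of the combined loss were 0.26 with and 0.10 without KRAB letters, so that the opposite sign was not kept. By number of fingers the medians in the combined loss were 0.08 for 21 members with 0 to 6, 0.19 for 55 with 7 to 10, 0.30 for 77 with 11 to 14 and 0.26 for 77 with 15 or more.

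Members were also grouped by their seed matches for miR-181, with no test between groups. In the combined loss 63 members without a match had a median of 0.18 with 14 up and 10 down, 50 with 1 to 3 matches 0.20 with 13 up and 4 down, 57 with 4 to 6 matches 0.30 with 20 up and 6 down, and 60 with 7 or more 0.32 with 16 up and 6 down. Of all genes 17.0% rose and 25.2% fell there. With the GC correction the medians of the 4 groups were 0.16, 0.16, 0.26 and 0.30. In TNRC6AB-/- cells without transfection the order ran the other way, with medians of 0.09, 0.01, 0.003 and -0.005 (0.02, 0.05, 0.01 and -0.01 with the GC correction). The 60 members with 7 or more matches had 1 up and 5 down (1.67% and 8.33%), beside 17.2% and 12.3% of all genes. In TNRC6A-/- cells the 4 groups, from no match to 7 or more, had 4, 3, 7 and 0 members up by edgeR's test, with medians of 0.10, 0.08, 0.05 and -0.01, and the 5 members that fell were all in the last. These 5 are 8.33% of that group, where 5.47% of all genes fell and 8.52% rose. By DESeq2 4 of the 5 members that fell were in that group, and by limma 3 of 3. In that group none rose by DESeq2 or limma either, and 3 were up and 8 down at an unadjusted p under 0.05. Counting matches in the 3′ untranslated region instead, 142 members with 0 had a median of 0.20 in the combined loss, 50 with 1 had 0.28 and 38 with 2 or more had 0.37. Of these 38, 16 rose and 2 fell (42.1% and 5.26%), beside 17.0% and 25.2% of all genes. In TNRC6AB-/- cells without transfection the medians by these matches were 0.02, 0.001 and 0.02. There 4 of the 38 rose and 1 fell (10.5% and 2.63%), beside 17.2% and 12.3% of all genes. Among protein-coding genes without a ZNF symbol the medians were -0.14 for 12931 genes with 0 coding matches, -0.07 for 1755 with 1 to 3 and 0.06 for 36 with 4 or more. The run with the highest median among those of 13 or more members, around ZNF91, had a median of 0 coding matches per member, as did the run at chr19:43525497-44500524.

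**Figure D5:**
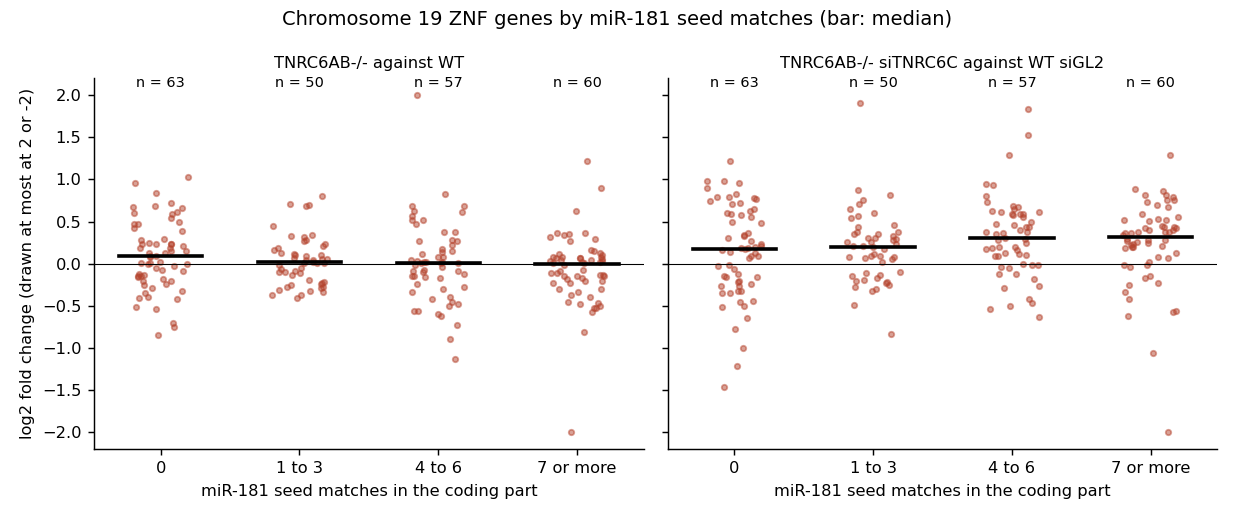
Log2 fold change of members by the number of miR-181 seed matches in the coding part, in TNRC6AB-/- against WT (left) and TNRC6AB-/- siTNRC6C against WT siGL2 (right), with points for genes and a bar for the median. Points beyond 2 or -2 are drawn at that limit. Medians on the right go from 0.18 without a match to 0.32 with 7 or more, and on the left from 0.09 to -0.01.

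Few members with a known role passed outside the combined loss, ZNF91 aside. ZNF93, which binds L1 elements, stayed at 0.113 to 0.684 CPM over all libraries and passed in no comparison. ZNF274, which binds the 3′ ends of zinc finger genes and brings SETDB1 to them, was at 11.1, 10.9 and 11.5 CPM in WT siGL2 and 13.8, 13.3 and 13.6 CPM in TNRC6AB-/- siTNRC6C cells (0.28 ± 0.11, edgeR adjusted p = 0.0365). ZNF473, which takes part in histone messenger RNA processing, rose there by 0.44 ± 0.14 (edgeR adjusted p = 0.0176). ZNF224, a KRAB repressor of ALDOA, rose by 0.32 ± 0.11 (edgeR adjusted p = 0.0235), the imprinted ZNF331 by 0.73 ± 0.27 (edgeR adjusted p = 0.0362) and ZNF43 by 0.74 ± 0.21 (edgeR adjusted p = 0.00577). ZNF85, ZNF420 and ZNF568 passed in no comparison, with 0.26 ± 0.16, 0.07 ± 0.30 and 0.38 ± 0.30 in the combined loss.

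A list of KRAB corepressor and heterochromatin genes was set beside the members, and all 27 were tested. The shares called are given beside those of all genes. By edgeR's test 0 of 27 passed in TNRC6B-/- cells, as by DESeq2 and limma, with 5 up and 1 down at an unadjusted p under 0.05. Of all genes 2.2% rose and 0.94% fell there. After siTNRC6C in WT cells 0 passed by edgeR or DESeq2, 1 rose by limma, and 1 was up at an unadjusted p under 0.05. Of all genes 0.397% rose and 0.534% fell in that comparison. After siTNRC6C in TNRC6AB-/- cells 1 of 27 fell (3.7%, against 4.38% of all genes). There 0 rose by edgeR or DESeq2 and 3 by limma, beside 2.19% of all genes by edgeR. TNRC6AB-/- siGL2 against WT siGL2 had 5 up and 6 down (18.5% and 22.2%, against 9.17% and 12.5% of all genes). In TNRC6A-/- cells 3 rose (11.1%, against 8.52% of all genes) and 0 fell by edgeR, DESeq2 or limma, with 7 up and 0 down at an unadjusted p under 0.05. The 3 were DAXX, an H3.3 chaperone (0.67 ± 0.12, edgeR adjusted p = 0.000341), ATF7IP, the partner of SETDB1 (0.40 ± 0.08, edgeR adjusted p = 0.000961), and MORC2 (0.35 ± 0.10, edgeR adjusted p = 0.0186). TNRC6AB-/- cells had 8 up and 3 down (29.6% and 11.1%, against 17.2% and 12.3% of all genes), with EHMT1, an H3K9 methyltransferase (0.88 ± 0.07, edgeR adjusted p = 3.5e-09) and the HP1 gene CBX5 (0.99 ± 0.12, edgeR adjusted p = 6.77e-07) higher and DNMT3B, a DNA methyltransferase (-1.11 ± 0.14, edgeR adjusted p = 1.97e-06) lower. In the combined loss 6 rose and 10 fell (22.2% and 37.0%, against 17.0% and 25.2% of all genes), with a median of -0.18. EHMT1 rose by 1.01 ± 0.07 (edgeR adjusted p = 2.88e-10), and the HP1 gene CBX3 (-1.43 ± 0.15, edgeR adjusted p = 9.86e-08) and FAM208A, a HUSH subunit (-0.58 ± 0.09, edgeR adjusted p = 1.06e-05), fell. DNMT3B was higher in the combined loss (0.38, edgeR adjusted p = 0.0274), opposite to untransfected TNRC6AB-/- cells. In TNRC6AB-/- siGL2 against WT siGL2 DNMT3B did not pass (0.15, edgeR adjusted p = 0.516). TRIM28, the corepressor that KRAB domains bind, was looked up after its values were seen: it stood at 400.2 ± 49.2 CPM in WT siGL2 and 237.5 ± 5.03 in TNRC6AB-/- siTNRC6C cells, a log2 fold change of -0.75 (edgeR adjusted p = 4.57e-05). TRIM28 was also lower in TNRC6AB-/- siGL2 against WT siGL2 (-0.49, edgeR adjusted p = 0.00651). In untransfected TNRC6AB-/- cells TRIM28 did not pass (-0.16, edgeR adjusted p = 0.399). SETDB1 passed in no comparison.

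Over the 7 comparisons 118 members passed in at least 1 and 113 in none. The same count was not made over all genes. In the combined loss alone 42.2% of all genes passed in either direction, against 38.5% of the members. The 6 members that rose in some and fell in others were ZNF266, ZNF562, ZNF573, ZNF350, ZNF432 and ZNF587B, which are named here by that count.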

How the data were processed

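Strand-specific whole-transcriptome libraries of 24 samples were quantified by the authors with Salmon, and the deposited files give for each transcript an estimated count of reads (not normalized) and a level in TPM, which Salmon scales by effective transcript length and library size. The submitters' processing notes name Salmon 0.11.0, STAR 2.5.3a, DESeq2 and the build hg38. Which transcript set served as the index is not given in the sources used here. Of 199612 transcript names 199368 matched GENCODE 29 by identifier, leaving 244 unmatched that carried up to 0.0544% of a library's reads. The labels name Trizol and the study's methods a column kit for RNA extraction, so that step is uncertain.

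Estimated counts were summed per gene, rounded, filtered with filterByExpr (24153 of 44889 genes with reads) and scaled by TMM. They were fitted over all 24 libraries by group with edgeR 4.0.16 (glmQLFit, glmQLFTest, R 4.3.3; 16 residual degrees of freedom). A gene was called at a Benjamini-Hochberg adjusted p under 0.05 over all genes tested. The 7 comparisons share libraries where they share a group, and 2 interaction terms were tested. The script was tested on simulated data. KRAB letters, fingers and seed matches were read from the longest annotated coding part, with GENCODE 29 and GRCh38, and a promoter table was not needed. Shared words are the 31-letter stretches of a gene's transcripts that also occur in transcripts of other genes.

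Named members were up to 4 with the largest rise and up to 4 with the largest fall per comparison among called members with a mean of at least 1 CPM in a group and no overlap of CPM, the 5 with the highest TPM, and 10 with a known role. Of 27 KRAB corepressor and heterochromatin genes up to 3 with the smallest adjusted p per comparison were named. Members, lists and groups of members were chosen with earlier results of these data known. Alternatives were DESeq2 1.42.0 and its size factors, limma 3.58.1 with weights per group, other filters, a fold threshold, a replicate block, transcript length, GC content, the compared libraries alone, TPM with a pseudocount of 0.1, and leaving out each library. Leaving out the farthest library of each group was chosen after seeing the data.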

Additional observations from a re-analysis of the deposited data

Results flagged for a closer look

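The effect of siTNRC6C differed between TNRC6AB-/- and WT cells, by the interaction term of edgeR's quasi-likelihood test, in 6 members (2.6%), beside 3.03% of all genes. The difference of the log2 fold changes (TNRC6AB-/- minus WT) was -1.346 for ZNF296 (edgeR adjusted p = 0.0302), -0.829 for ZNF480 (0.0364), -0.793 for ZNF525 (0.0165), -0.671 for ZNF845 (0.0466), -0.634 for ZNF587B (0.0165) and -0.632 for ZNF888 (0.0354). Of 22 alternatives, 11 lost this call for ZNF480, 9 for ZNF296, 5 for ZNF587B and 2 for ZNF525. ZNF525, ZNF845, ZNF888 and ZNF480 lie in the same run of neighbours at chr19:51571298-53580269. In ZNF480 siTNRC6C raised the level in WT cells from 31.5 to 38 CPM up to 53.8 to 55.9 CPM, while in TNRC6AB-/- cells it stood at 36.9 to 42.4 CPM after siGL2 and 33.5 to 35 CPM after siTNRC6C.

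The difference between TNRC6AB-/- and WT cells depended on transfection, by the other interaction term, in 12 members (5.19%), beside 8.72% of all genes. The change of the log2 fold change (siGL2-transfected minus untransfected) was 0.876 for ZNF460 (edgeR adjusted p = 0.0212), 0.866 for ZNF587B (0.000518), 0.66 for ZNF146 (0.0407), 0.645 for ZNF562 (0.0101), 0.635 for ZNF121 (0.012), 0.57 for ZNF566 (0.0472) and 0.366 for ZNF544 (0.0432). It was -1.434 for ZNF837 (0.0188), -0.847 for ZNF428 (0.0131), -0.769 for ZNF446 (0.0256) and -0.542 for ZNF580 (0.0164). Of 22 alternatives, 14 lost this call for ZNF544, 12 for ZNF146, 4 for ZNF580, 3 for ZNF460 and 0 for ZNF121 and ZNF587B. The fitted 10.451 for the read-through gene ZNF625-ZNF20 (0.0351) has no reading as a size, because its untransfected TNRC6AB-/- libraries held no reads and 98.4% of its words are shared with other genes. Mean fragment length was 196.9 to 212.9 bases in the siGL2 libraries and 182.3 to 191.7 in the untransfected WT and TNRC6AB-/- libraries, and its part in these values was not tested.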

How the results depend on the processing

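Of 112 calls of named members 37 held under every alternative run, 75 were lost under at least 1 and 0 changed sign. Over the fits that left out 1 library at a time 60 of the 112 were lost at least once. Of the other alternatives the average transcript length as offset lost 45, no filter on low counts 28, the compared libraries alone 24 and DESeq2 1. Depth limits the weakly expressed members: 185 of 231 reached a mean of 1 CPM. The causes of the moves below were not tested. The root mean square distance of a library from its group mean was 0.27 to 0.48 on the log2 scale in untransfected and 0.21 to 0.33 in transfected groups.

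Counts are given as members up and members down against the values of the report. With a log2 fold change beyond 0.6 as well, TNRC6A-/- had 6 up, TNRC6B-/- 1 up, TNRC6AB-/- 15 up and 7 down, siTNRC6C in WT cells 1 up, siTNRC6C in TNRC6AB-/- cells 0 up and 1 down, the combined loss 32 up and 10 down and TNRC6AB-/- siGL2 10 up and 5 down. Of all genes tested 4.62%, 1.18%, 10.3%, 0.211%, 1.29%, 12.2% and 5.39% were up under that rule, in the same order. The shares down were 8.45% in TNRC6AB-/-, 2.03% for siTNRC6C in TNRC6AB-/- cells, 17.0% in the combined loss and 7.77% in TNRC6AB-/- siGL2. With no filter on low counts TNRC6A-/- had 5 up, TNRC6B-/- 2 up, TNRC6AB-/- 20 up, siTNRC6C in TNRC6AB-/- cells 0 up and 2 down, and TNRC6AB-/- siGL2 8 down, while the interactions had 3 down (siTNRC6C by genotype) and 1 down (genotype by transfection). Shares of all genes were, in the same order, 3.86%, 1.25% and 7.7% up, 1.26% up and 2.77% down, 6.18% down, and 1.45% and 2.86% down. In fits of the compared libraries alone TNRC6A-/- had 4 up and 3 down, TNRC6B-/- 0 and 0, TNRC6AB-/- 10 and 8, siTNRC6C in WT cells 39 and 1, siTNRC6C in TNRC6AB-/- cells 45 and 14, the combined loss 111 up and TNRC6AB-/- siGL2 62 up, and the interactions had 3 and 53 and 5 and 1. There the medians of siTNRC6C in TNRC6AB-/- cells, the combined loss and TNRC6AB-/- siGL2 were 0.136, 0.347 and 0.203. By limma with weights per group TNRC6A-/- had 3 and 3, TNRC6B-/- 0 and 0, TNRC6AB-/- 19 and 13, siTNRC6C in WT cells 29 up and in TNRC6AB-/- cells 36 and 17, and the interactions 2 and 39 and 5 and 2. Shares of all genes by limma were 5.97% and 3.56%, 0.24% and 0.174%, 12.5% and 8.14%, 4.23% up, and 13.5% and 21.8%. For the interactions they were 5.7% and 14.4% and 1.76% and 5.5%. By DESeq2 TNRC6B-/- had 7 up, siTNRC6C 15 up in WT and 2 up in TNRC6AB-/- cells, and the interactions 1 and 17 and 14 up. Shares of all genes by DESeq2 were 3.36%, 1.57% and 2.79% up, then 1.57% and 4.78% and 3.23% up. Its size factors in edgeR gave siTNRC6C in TNRC6AB-/- cells 2 down, beside 3.55% of all genes. With transcript length as offset TNRC6B-/- had 0 up, siTNRC6C 0 up in both genotypes, the combined loss 41 up and TNRC6AB-/- siGL2 19 up, with medians of 0.06 for siTNRC6C in TNRC6AB-/- cells and 0.175 for the combined loss. Of all genes 1.18% were up in TNRC6B-/- there, 0.182% and 1.58% after siTNRC6C in WT and TNRC6AB-/- cells. In the combined loss and TNRC6AB-/- siGL2 15.2% and 7.35% were up. The GC correction gave TNRC6B-/- 2 up, siTNRC6C in TNRC6AB-/- cells 0 up with a median of 0.079, and the interactions 1 up and 5 up with 2 down. Shares of all genes were 2.02%, 2.35%, 1.01%, and 2.51% with 5.05% down.

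On the TPM scale the medians of TNRC6A-/-, TNRC6B-/-, TNRC6AB-/-, siTNRC6C in TNRC6AB-/- cells, the combined loss and TNRC6AB-/- siGL2 were 0.007, -0.257, -0.105, 0.266, 0.713 and 0.419. Those of all genes were -0.007, -0.26, -0.089, 0.184, 0.543 and 0.338. Over members at 1 CPM or more the medians were 0.053 for siTNRC6C in TNRC6AB-/- cells and 0.201 for the combined loss. Without the farthest library of each group TNRC6A-/- had 13 down, TNRC6B-/- 26 and 21, TNRC6AB-/- 37 down, siTNRC6C 12 up in WT and 15 up in TNRC6AB-/- cells, TNRC6AB-/- siGL2 58 up and the interactions 16 down and 37 up. Shares of all genes were 9.42%, 14.4% and 8.11%, 16.4%, 1.3%, 7.39%, 15.5%, 6.42% and 7.86%, in the same order. The medians of the members were then -0.01, -0.112 and -0.1 in the untransfected comparisons in that order, 0.235 for siTNRC6C in WT cells, 0.356 for the combined loss and 0.22 for TNRC6AB-/- siGL2. Those of all genes were -0.016, -0.021, -0.041, 0.034, 0.099 and 0.07.

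Replicate numbers did not pair the libraries, since correlations of same-numbered deviations ran from -0.152 to 0.354. With the replicate block TNRC6B-/- had 2 up, siTNRC6C in TNRC6AB-/- cells 2 down and genotype by transfection 5 up, and 11 of the 112 calls of named members were lost. Shares of all genes with the block were 1.91%, 3.64% and 1.97% in that order.

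Leaving out 1 library at a time gave 5 to 11 up and 3 to 6 down in TNRC6A-/-, 1 to 27 and 2 to 9 in TNRC6B-/-, 20 to 31 and 16 to 23 in TNRC6AB-/-, 0 to 2 and 0 to 0 for siTNRC6C in WT cells, 0 to 0 and 0 to 2 in TNRC6AB-/- cells, 36 to 68 and 17 to 29 in the combined loss, 19 to 26 and 6 to 14 in TNRC6AB-/- siGL2, 0 to 1 and 0 to 6 for siTNRC6C by genotype and 3 to 11 and 1 to 7 for genotype by transfection. Over all genes these fits gave 6.1% to 8.9% up and 3.29% to 5.26% down in TNRC6A-/-. TNRC6B-/- had 1.06% to 9.94% and 0.588% to 3.07%, and TNRC6AB-/- 13.2% to 17.4% and 10.2% to 12.5%. The combined loss had 12.4% to 18.4% and 20.3% to 26.5%, and TNRC6AB-/- siGL2 6.87% to 7.8% and 8.51% to 13.6%. For siTNRC6C the shares of all genes were 0.0828% to 0.153% and 0.108% to 0.248% in WT cells. They were 0.849% to 1.38% and 1.01% to 3.58% in TNRC6AB-/- cells. The interactions had 0.397% to 0.704% and 0.48% to 2.12% (siTNRC6C by genotype), and 1.41% to 3.51% and 3.01% to 9.31% (genotype by transfection). The medians of the members ran from 0.019 to 0.096 in TNRC6A-/-, -0.002 to 0.064 in TNRC6B-/-, -0.074 to 0.061 in TNRC6AB-/-, 0.155 to 0.202 and 0.044 to 0.093 for siTNRC6C in WT and TNRC6AB-/- cells, 0.21 to 0.27 in the combined loss and 0.095 to 0.174 in TNRC6AB-/- siGL2. The libraries that moved a count by over 1.5 times, beside those named with the comparisons, were WT replicate 1 and TNRC6A-/- replicate 1 (7 up each in TNRC6A-/-, the second with 3 down), WT replicates 1 and 2 and TNRC6B-/- replicates 2 and 3 in TNRC6B-/- (2 up, 5 down, 1 up and 1 up) and in TNRC6AB-/- siGL2 its replicates 1, 2 and 3 (21 up, 22 up with 6 down, and 7 down) and WT siGL2 replicates 1 and 2 (7 down, and 19 up with 6 down).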
